A study of Homo sapiens with 8 samples.

Results

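The insulin-like growth factor (IGF) ligands, receptors and binding proteins were followed in neuroblastoma cells with a short hairpin RNA (shRNA) against TRPM7, an ion channel fused to a kinase domain. The members were 10 genes chosen by name, IGF2, IGF1R, IGF2R, INSR, IGFBP2, IGFBP3, IGFBP4, IGFBP5, IGFBP6 and IGFBP7, and every probe that carries one of these symbols was taken, which gave 14 of the 47322 probes of an Illumina HumanHT-12 v4 bead array. Of these, 9 probes of 7 genes were detected, at a detection p under 0.05, on both arrays of at least 1 group. The 8 arrays form 4 groups of 2: SH-EP2 control, SH-EP2 TRPM7 shRNA, SH-SY5Y control and SH-SY5Y TRPM7 shRNA.

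Both lines are subclones of the human neuroblastoma line SK-N-SH. SH-SY5Y is neuroblastic (N-type) and SH-EP2 is epithelial-like, non-neuronal (S-type), and neither is more than a single line of its kind. The cells in every group had been transduced with a lentiviral pLKO vector, selected with puromycin and grown in serum, so that within a line the groups differ by the hairpin, scrambled in controls, and not by transduction. The labels give 1 DMEM-based medium for all samples, whereas the study's methods put SH-SY5Y in DMEM/F12 with added amino acids and SH-EP2 in DMEM. The labels name no second TRPM7 hairpin on the arrays, and off-target effects of the hairpin cannot be told apart from those of TRPM7 here. The duplicates are not said to be separate cultures, and p-values then measure only the spread between these arrays, which may be technical.

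IGF1 and IGF2 are small secreted ligands that act through the type 1 IGF receptor, IGF1R, and through insulin receptor isoforms encoded by INSR, while IGF2R, which also carries mannose-6-phosphate proteins to lysosomes, binds and clears IGF2. The IGF binding proteins are secreted, hold IGFs in the medium and the matrix, and can either restrain or prolong their action. Proteases that cut the binding proteins release the ligand. IGF2 has long been studied as a growth factor of neuroblastoma cells, and IGFBP2, IGFBP5 and IGFBP6 have been studied in such lines. IGFBP7 is a more distant relative with weak affinity for IGFs.

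The sequences before the start sites of IGFBP3, IGFBP4, IGFBP5 and IGFBP6 are shown because these 4 genes had probes that passed the test with the TRPM7 shRNA in at least 1 line. Each is the RefSeq window of GRCh38.p14 from 250 bases before the annotated start to 50 bases after it, 5′ to 3′ on the strand of the gene. Capitals mark matches, on either strand, to the TATA box letters TATAAA, the E-box CAGGTG that SNAI factors bind, or the GC box GGGCGG. The windows lie at chr7:45921223-45921522 (minus strand) for IGFBP3, chr17:40443200-40443499 (plus strand) for IGFBP4, chr2:216695500-216695799 (minus strand) for IGFBP5 and chr12:53097417-53097716 (plus strand) for IGFBP6.
IGFBP3: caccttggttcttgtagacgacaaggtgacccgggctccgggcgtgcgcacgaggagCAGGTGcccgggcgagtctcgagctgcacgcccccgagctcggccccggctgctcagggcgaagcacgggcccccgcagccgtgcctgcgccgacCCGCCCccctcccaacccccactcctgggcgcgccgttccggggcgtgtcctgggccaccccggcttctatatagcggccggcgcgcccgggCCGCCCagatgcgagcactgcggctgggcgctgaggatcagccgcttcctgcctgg
IGFBP4: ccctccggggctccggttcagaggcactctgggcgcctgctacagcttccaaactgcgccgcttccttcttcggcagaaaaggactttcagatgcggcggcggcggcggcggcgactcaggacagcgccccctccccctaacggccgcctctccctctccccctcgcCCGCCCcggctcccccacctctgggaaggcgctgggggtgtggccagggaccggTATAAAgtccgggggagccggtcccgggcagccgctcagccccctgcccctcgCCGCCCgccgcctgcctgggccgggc
IGFBP5: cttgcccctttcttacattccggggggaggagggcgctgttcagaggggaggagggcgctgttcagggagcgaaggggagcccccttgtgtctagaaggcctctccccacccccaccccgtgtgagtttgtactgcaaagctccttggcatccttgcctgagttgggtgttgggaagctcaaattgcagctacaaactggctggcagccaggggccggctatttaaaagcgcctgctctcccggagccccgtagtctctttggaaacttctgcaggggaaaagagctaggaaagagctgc
IGFBP6: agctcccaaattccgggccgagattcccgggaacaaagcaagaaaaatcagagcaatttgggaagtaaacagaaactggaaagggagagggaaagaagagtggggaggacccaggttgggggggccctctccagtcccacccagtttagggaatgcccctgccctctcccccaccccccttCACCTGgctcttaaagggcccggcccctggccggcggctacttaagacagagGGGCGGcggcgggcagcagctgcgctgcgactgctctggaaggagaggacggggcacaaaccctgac

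IGFBP3 holds the E-box 193 bases before its start and GC boxes on the opposite strand 98 and 6 bases before it. IGFBP6 holds the E-box on the opposite strand 69 bases before the start and a GC box 17 bases before it. In IGFBP4 the TATA letters lie 29 bases before the start, with opposite-strand GC boxes 83 bases before it and 24 bases after it. No exact match to any of the 3 motifs is in the IGFBP5 window, and variants of the letters were not searched in any window. Among all 35116 promoter windows of this length, 11.5% hold TATAAA, 20.6% hold CAGGTG and 45% hold GGGCGG. Among the 8 member genes with a window, 1, 4 and 7 hold the motif in any of their windows. IGFBP2 has several windows, so these counts per gene and the shares per window are not like for like. A match is a description of the sequence only.

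Median signals of the 8 arrays, on the linear scale before normalization, lay between 105 and 120, and 40.8% to 44.2% of the probes were detected per array. The single TRPM7 probe stayed at background on all 8 arrays, with signals of 108 to 119 and detection p-values of 0.0753 to 0.201, so these arrays do not check the knockdown. Signals below are these linear values, and log2 levels and differences are after RMA background correction and quantile normalization. Probes were called changed at an adjusted p under 0.05 from limma, with Benjamini-Hochberg adjustment over all 47322 probes.

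The ligand IGF2 was close to background in both lines. Its 3 probes had signals of 88.5 to 124 on the 8 arrays. ILMN_1699867 was detected on SH-SY5Y control replicate 1 only, ILMN_2413956 on SH-SY5Y control replicate 1 and SH-SY5Y TRPM7 shRNA replicate 2, and ILMN_2298035 on no array. No IGF2 probe passed the test with the TRPM7 shRNA in either line. Between the controls, ILMN_2413956 had an adjusted p of 0.0472, with log2 levels of 3.27 and 2.01 in SH-SY5Y and 1.56 and 1.43 in SH-EP2, but was above background on only 1 of these 4 arrays, so no fold is given.

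Of the signalling receptors, IGF1R was not detected on any array, with signals of 96.9 to 120. INSR was detected on 3 of the 8 arrays, 1 in each group except SH-SY5Y TRPM7 shRNA, with signals of 97.4 to 128. Neither was above background on both arrays of any group, which does not show that these receptors are absent. IGF2R, in contrast, was detected on all 8 arrays.

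IGF2R had signals of 984 and 682 on the SH-SY5Y control arrays and of 1184 and 1096 on the SH-SY5Y TRPM7 shRNA arrays. On the log2 scale these were 9.67 and 9.51 against 10.05 and 9.75. The shRNA arrays were the higher ones without overlap, but the difference of 0.31 (95% interval 0.10 to 0.53) did not pass the test (limma adjusted p = 0.168). In SH-EP2 the IGF2R signals were 1477 and 1378 in controls and 1502 and 1421 with the shRNA, and the arrays overlapped (log2 difference 0.02, interval -0.20 to 0.24, adjusted p = 0.973).

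All member probes called with the TRPM7 shRNA were of binding proteins, but IGF2R was the only other member detected on both arrays of a group. In SH-SY5Y, 5 member probes passed the test with the TRPM7 shRNA, all of them lower, and they belong to IGFBP3, IGFBP5 and IGFBP6. In SH-EP2, 5 probes also passed, 2 of IGFBP3 lower and 3 of IGFBP4 and IGFBP5 higher. Over all probes 2.11% were called in SH-SY5Y and 3.02% in SH-EP2, and among the 21634 probes detected on both arrays of a group 4.56% and 6.54%. The members were chosen with earlier results of these data known, so these shares do not test an excess among them. Because bulk RNA was measured, a smaller share of cells that express a gene and less RNA per cell cannot be told apart.

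**Figure D1:**
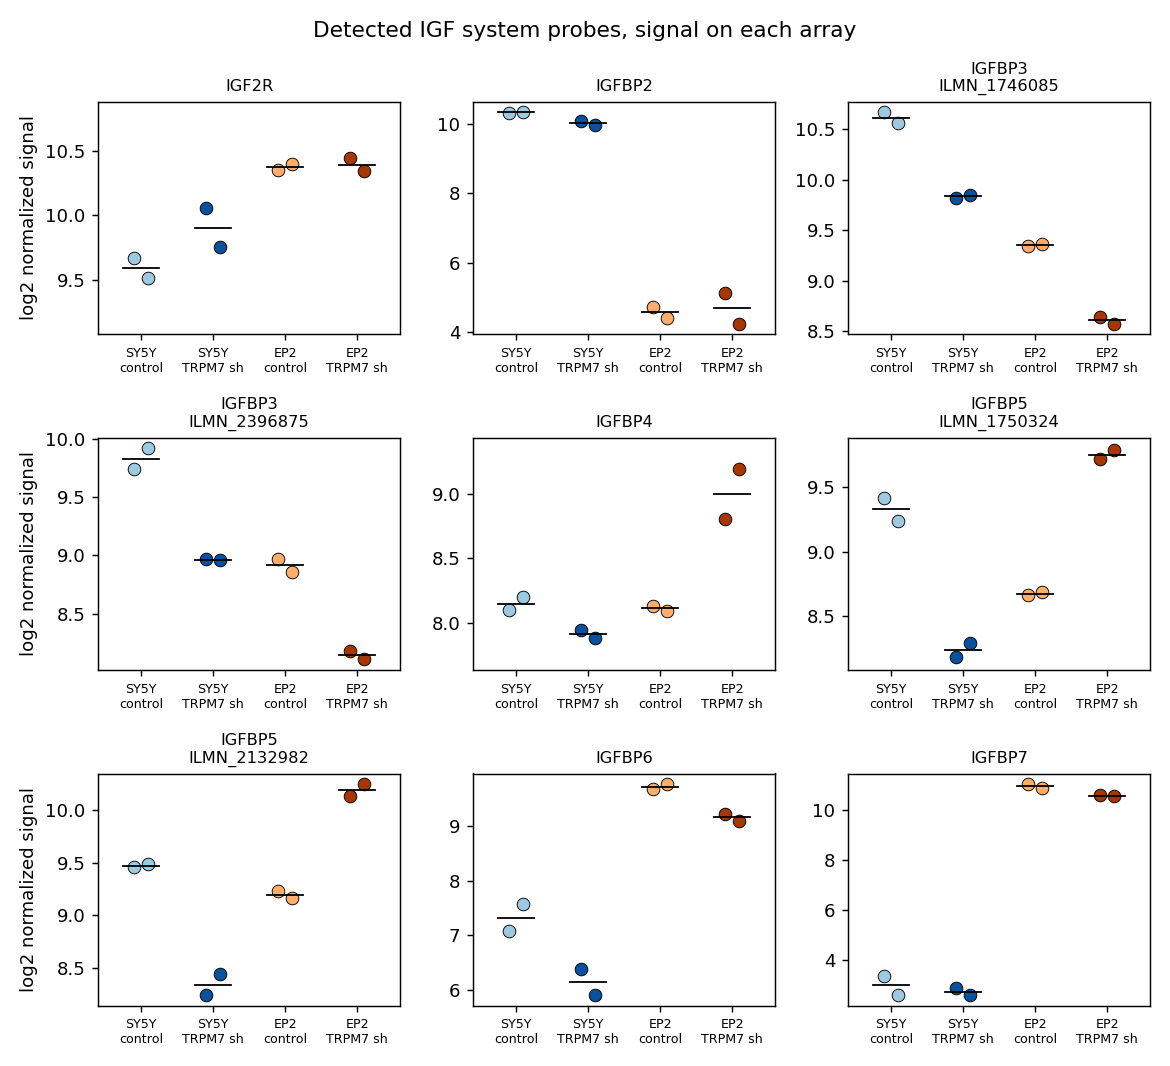
Log2 normalized signal (y axis, a separate range in each panel) of the 9 member probes detected on both arrays of at least 1 group, by group (x axis; SY5Y is SH-SY5Y, EP2 is SH-EP2, sh is shRNA). Points are the 2 arrays of a group and lines are their means; IGFBP5 lies lower with the shRNA in SH-SY5Y and higher in SH-EP2 on both probes, whereas IGFBP3 lies lower in both lines.

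IGFBP3, the main carrier of IGFs in blood and also studied for IGF-independent effects on growth, was lower with the shRNA in both lines on both of its probes. In SH-SY5Y, probe ILMN_1746085 had signals of 1880 and 1321 in controls and of 1026 and 1165 with the shRNA. In SH-EP2 its signals were 787 and 723 in controls and 511 and 494 with the shRNA. After normalization the shRNA arrays were below the control arrays without overlap in each line, at 9.82 and 9.85 against 10.67 and 10.57 in SH-SY5Y and at 8.64 and 8.57 against 9.34 and 9.36 in SH-EP2.

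This probe fell by 0.78 in SH-SY5Y (SE 0.0934, limma adjusted p = 3.53e-05) and by 0.75 in SH-EP2 (SE 0.0934, adjusted p = 5.91e-05), which is 1.72-fold and 1.68-fold. The second probe, ILMN_2396875, fell by 0.87 (adjusted p = 5.46e-05) and by 0.77 (adjusted p = 0.000182). The change in SH-EP2 minus that in SH-SY5Y was 0.04 on the log2 scale for the first probe (interval -0.24 to 0.31) and 0.09 for the second (interval -0.22 to 0.41). A difference between the lines in the IGFBP3 change was thus not detected, within a bound of about 0.41, although these intervals do not show that the changes were equal.

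IGFBP5, which binds both IGFs and the extracellular matrix, moved in opposite directions. Probe ILMN_2132982 had signals of 876 and 674 in SH-SY5Y controls and of 427 and 515 with the shRNA. The same probe had signals of 736 and 646 in SH-EP2 controls and of 1244 and 1353 with the shRNA. Log2 levels were 9.46 and 9.49 against 8.24 and 8.44 in SH-SY5Y, and 9.23 and 9.16 against 10.14 and 10.25 in SH-EP2. In both lines the 2 shRNA arrays lay on one side of the 2 controls, below them in SH-SY5Y and above them in SH-EP2.

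On this probe IGFBP5 fell by 1.13 in SH-SY5Y (SE 0.104, limma adjusted p = 1.09e-06), a 2.19-fold difference, and rose by 1.00 in SH-EP2 (SE 0.104, adjusted p = 5.97e-06), also about 2.00-fold. The second probe, ILMN_1750324, gave the same picture, with a fall of 1.09 in SH-SY5Y (adjusted p = 2.77e-06) and a rise of 1.08 in SH-EP2 (adjusted p = 3.31e-06). The difference between these changes was tested as an interaction. It was 2.13 for ILMN_2132982 (interval 1.82 to 2.44, adjusted p = 5.51e-08) and 2.17 for ILMN_1750324 (interval 1.85 to 2.49, adjusted p = 6.14e-08).

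With 1.4% of all probes and 3.04% of detected probes called in that interaction, 3 member probes passed, both IGFBP5 probes and the IGFBP4 probe. IGFBP2 lies beside IGFBP5 on chromosome 2, at chr2:216632828-216664436 against chr2:216672105-216695549 in GRCh38.p14. No change in IGFBP2 passed the test in either line. Its signals in SH-SY5Y were 1483 and 1120 in controls and 1212 and 1241 with the shRNA (log2 difference -0.29, adjusted p = 0.669), and in SH-EP2, where they lay near background, 142 and 131 against 151 and 135 (log2 difference 0.12, adjusted p = 0.894).

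IGFBP4, regarded mainly as an inhibitor of IGF action, rose in SH-EP2. Signals were 405 and 363 on the control arrays and 559 and 703 on the shRNA arrays, which are log2 levels of 8.13 and 8.10 against 8.80 and 9.19. The shRNA replicates differed more between themselves than the controls did, but both lay above them, and the rise of 0.88 (SE 0.133) passed the test (limma adjusted p = 0.000404). In SH-SY5Y the signals were 409 and 335 in controls and 370 and 394 with the shRNA, and the log2 difference of -0.24 did not pass (adjusted p = 0.552). The changes differed by 1.12 between the lines (SE 0.188, adjusted p = 0.00206).

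IGFBP6, a binding protein with a preference for IGF2, was lower with the shRNA in SH-SY5Y. Signals there were 257 and 254 in controls and 205 and 187 with the shRNA and log2 levels were 7.07 and 7.58 against 6.38 and 5.90. It fell by 1.18 (SE 0.167, limma adjusted p = 0.000225). The size depended on the background correction, and without any correction the fall was 0.57 (adjusted p = 0.000218).

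IGFBP6 in SH-EP2 had signals of 967 and 936 in controls and of 710 and 665 with the shRNA. These arrays did not overlap either, but the log2 difference of -0.56 missed the threshold (SE 0.167, adjusted p = 0.0833), and passed it under 9 of 18 other settings. The difference between the changes in the 2 lines did not pass (0.62, adjusted p = 0.314), so the IGFBP6 changes were not shown to differ between lines.

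IGFBP7, a secreted matrix protein, was bright in SH-EP2 alone. Its signals were 2247 and 1853 in SH-EP2 controls and 1631 and 1627 with the shRNA, and the log2 difference of -0.38 did not pass the test (adjusted p = 0.494). This probe passed it with each line normalized and fitted alone (adjusted p = 0.000761), with the normexp correction (adjusted p = 0.0171) and without background correction (adjusted p = 0.00682). In SH-SY5Y the signals were 119 and 104 in controls and 119 and 116 with the shRNA, and only control replicate 1 was above background.

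**Figure D2:**
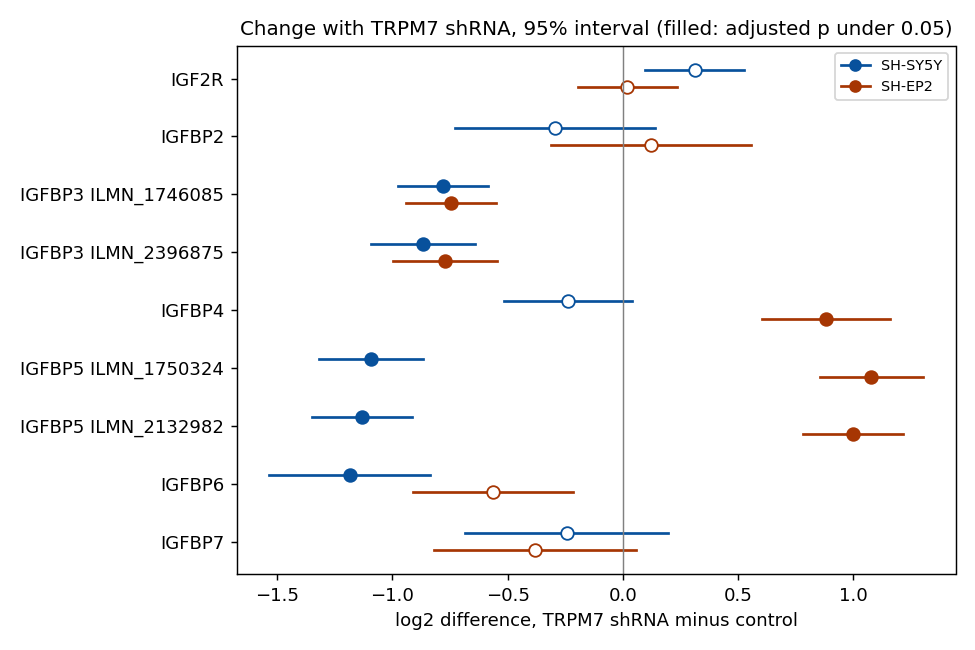
Log2 difference, TRPM7 shRNA minus control (x axis), of the 9 detected member probes (y axis) in SH-SY5Y (blue) and SH-EP2 (red), with 95% intervals from limma; filled points have an adjusted p under 0.05. Both IGFBP3 probes lie left of 0 in both lines, both IGFBP5 probes lie on opposite sides in the lines, and IGFBP4 is filled in SH-EP2 only.

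These calls depended on how the variance was shared among probes. With eBayes and no intensity trend 0 of the 14 member probes passed in either line or in the interaction, although 5 in each line and 4 in the interaction had an unadjusted p under 0.05, and the adjusted p-values of the called probes became 0.104 to 0.216 in SH-SY5Y, 0.0757 to 0.173 in SH-EP2 and 0.0536 to 0.288 in the interaction. A per-probe test without eBayes called 0, 1 (IGFBP3) and 0. The direction did not depend on the scaling: with median scaling the calls were again 5 lower in SH-SY5Y and 3 higher and 2 lower in SH-EP2, whereas the share of higher calls over all probes moved from 38.2% to 66.1% in SH-SY5Y and from 56.6% to 37.1% in the interaction.

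The median log2 difference of the 14 member probes was -0.27 in SH-SY5Y and -0.02 in SH-EP2, beside 0.00 and 0.01 over all probes. Markers of the cell states moved within the lines as well. Of 13 noradrenergic genes, 4 were lower with the shRNA in SH-SY5Y, ISL1, DBH and STMN2 among them. Before normalization the summed signal of the 13 was 33879 to 43247 in controls and 31342 to 31826 with the shRNA. After normalization their median log2 levels overlapped, at 10.70 and 11.06 in controls and 11.14 and 10.59 with the shRNA. In SH-EP2, 1 noradrenergic gene was higher and 2 were lower, CHGA among the latter although it was undetected there. Of 14 mesenchymal genes, 1 was higher and 2 were lower in SH-SY5Y, and 1 was higher and 3 were lower in SH-EP2. Over all probes 2.11% were called in SH-SY5Y and 3.02% in SH-EP2, and among detected probes 4.56% and 6.54%. These shares count every probe, not 1 per gene. The part of the marker genes in the changes of the binding proteins was not tested.

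The controls of the lines differed far more than shRNA and control did. Of the 14 member probes 8 passed the test between SH-EP2 control and SH-SY5Y control, 3 higher and 5 lower in SH-EP2, where 26.2% of all probes and 55.5% of detected probes were called. Among the 9 detected member probes 7 passed, and the eighth call was the IGF2 probe ILMN_2413956 described above. The marker genes differed along with them. Summed signals of the 13 noradrenergic genes were 1724 and 1800 in SH-EP2 controls and 33879 and 43247 in SH-SY5Y controls, and 12 of the 13 were lower in SH-EP2. Of the 14 mesenchymal genes 12 were higher in SH-EP2 and 2, VIM and TWIST1, were lower. TH, which defines the noradrenergic state, was not detected in either line, and DBH was not detected in SH-EP2. These are 2 lines, and line, cell state and any difference in medium cannot be told apart.

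IGFBP7 and IGFBP2 differed between the lines in opposite directions. IGFBP7 was higher in SH-EP2 (limma adjusted p = 1.08e-16), but SH-SY5Y control was above background on 1 of 2 arrays only, so the fitted log2 difference of 7.96 is not a measured size, and it ran from 4.14 to 8.34 under the other settings. IGFBP2 was lower in SH-EP2, with a log2 difference of -5.75 (SE 0.207, adjusted p = 1.29e-14) and a range of -5.90 to -3.34 under the other settings. Both smallest values came from signals without background correction.

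IGFBP6 was also higher in SH-EP2, by 2.40 (SE 0.167, adjusted p = 4.07e-10), or 5.27-fold. IGF2R was higher by 0.78 (adjusted p = 3.92e-06), or 1.72-fold. IGFBP3 was lower in SH-EP2 on both probes, with log2 differences of -1.27 (adjusted p = 1.01e-09) and -0.91 (adjusted p = 9.11e-07). The IGFBP5 probes disagreed in the call, with -0.65 for ILMN_1750324 (adjusted p = 5.65e-05) and -0.28 for ILMN_2132982 (adjusted p = 0.0552). IGFBP4 levels overlapped, with a log2 difference of -0.03 (interval -0.31 to 0.24, adjusted p = 0.911).

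**Figure D3:**
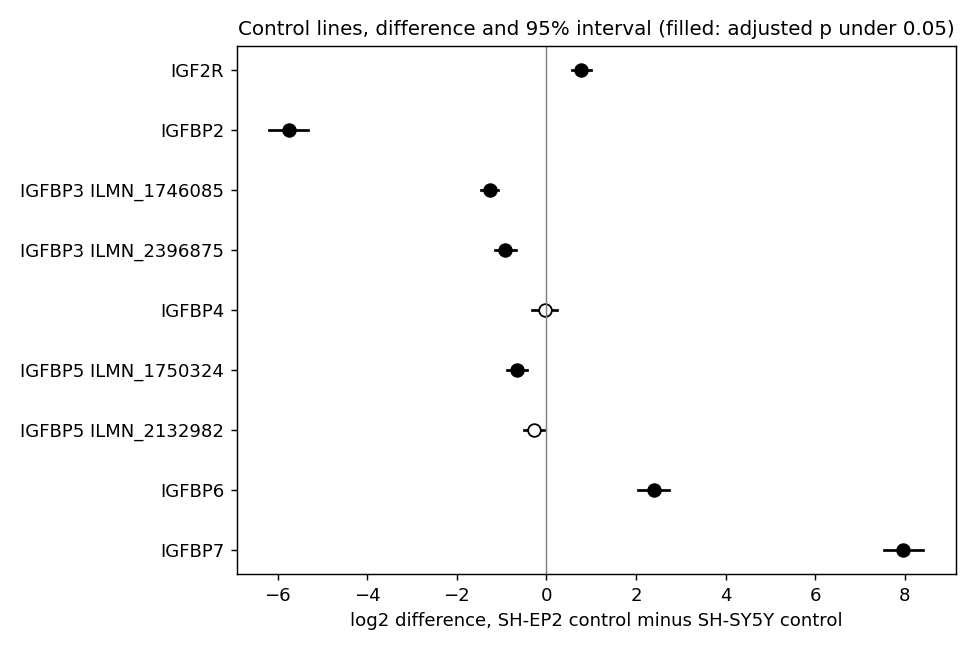
Log2 difference, SH-EP2 control minus SH-SY5Y control (x axis), of the 9 detected member probes (y axis), with 95% intervals from limma; filled points have an adjusted p under 0.05. IGFBP7, IGFBP6 and IGF2R lie on the SH-EP2 side, IGFBP2 and IGFBP3 on the SH-SY5Y side, and IGFBP4 lies at 0.

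The levels of IGFBP5 in the 4 groups were ordered differently from those of IGFBP3. For IGFBP3 (ILMN_1746085) mean log2 levels were 10.62 in SH-SY5Y control, 9.84 in SH-SY5Y TRPM7 shRNA, 9.35 in SH-EP2 control and 8.60 in SH-EP2 TRPM7 shRNA. On its other probe, ILMN_2396875, the middle groups overlapped, at 8.97 and 8.96 in SH-SY5Y TRPM7 shRNA and 8.97 and 8.86 in SH-EP2 control. For IGFBP5 (ILMN_2132982) they were 10.19 in SH-EP2 TRPM7 shRNA, 9.47 in SH-SY5Y control, 9.20 in SH-EP2 control and 8.34 in SH-SY5Y TRPM7 shRNA. Its middle groups, the controls, did not differ past the threshold on this probe. Comparisons between the shRNA groups of the lines were not tested.

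Among 48 further genes around the pathway, all of which had a probe and 39 of which were detected on both arrays of a group, 3 passed the test with the shRNA in SH-SY5Y, 1 higher and 2 lower, and 4 in SH-EP2, 1 higher and 3 lower. These are 7.69% and 10.3% of the 39 detected genes, beside 4.56% and 6.54% of all detected probes. Each list gene is given by its brightest probe, whereas the other shares count every detected probe. The shares are thus not like for like, here and between the controls below. The median log2 differences of the list were 0.03 and 0.07. None of the 8 adaptor genes passed in either line, and the 6 further ligands, receptors and binding proteins did not pass either. Of the latter only IGFBPL1 was detected on both arrays of a group, with signals of 127 and 113 in SH-SY5Y controls and 129 and 150 with the shRNA (adjusted p = 0.802).

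Of the 8 proteases and regulators of the binding proteins, 6 were detected and HTRA1 alone passed in each line. HTRA1 is a secreted serine protease that can cleave IGFBP5. Its signals were 380 and 301 in SH-SY5Y controls against 239 and 260 with the shRNA, and 3983 and 3422 in SH-EP2 controls against 2618 and 2577. It fell by 1.05 in SH-SY5Y (limma adjusted p = 1.02e-06) and by 0.60 in SH-EP2 (adjusted p = 0.000686), and these changes were not shown to differ (interaction 0.45, adjusted p = 0.133). HTRA1 RNA was thus lower in both lines, while IGFBP5 RNA was lower in SH-SY5Y and higher in SH-EP2. Cleavage of the protein was not measured, and a link between these changes was not tested.

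PAPPA, a metalloprotease that cuts IGFBP4, did not pass in SH-SY5Y (log2 difference -0.82, adjusted p = 0.420) or SH-EP2 (0.50, adjusted p = 0.684). Between the controls PAPPA was lower in SH-EP2 (log2 difference -1.83, adjusted p = 0.000759), where it was detected on 1 of 2 arrays. Its inhibitors STC1 and STC2 differed between the lines in opposite directions. STC1 was detected in SH-EP2 only and was at least 12.4-fold higher in SH-EP2 control than in SH-SY5Y control (adjusted p = 4.92e-10), while STC2 was at least 7.98-fold higher in SH-SY5Y control (adjusted p = 9.04e-09). These bounds set the undetected group at the lowest signal of a detected probe, and neither gene passed the test with the shRNA. KLK3, a protease that can cut IGFBP3, was at least 21.0-fold higher in SH-EP2 control (adjusted p = 1.17e-11). ADAM12, which cleaves IGFBP3 and IGFBP5, did not pass in any comparison.

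The RNA regulators of IGF2 held 2 of the called genes. IGF2BP3, which binds IGF2 mRNA, rose by 0.38 in SH-SY5Y (adjusted p = 0.0440) and by 0.71 in SH-EP2 (adjusted p = 0.000137), with SH-EP2 signals of 486 and 432 in controls and 676 and 705 with the shRNA. H19, the imprinted noncoding RNA beside IGF2, had signals of 140 and 150 in SH-EP2 controls and 115 and 113 with the shRNA. It was undetected with the shRNA, hence at least 3.61-fold lower (adjusted p = 0.00165), from a level that was itself low. H19 was undetected in SH-SY5Y, and its interaction did not pass (adjusted p = 0.225).

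The IGF2BP2 change differed between the lines (interaction 0.97, adjusted p = 0.0260) with -0.50 in SH-SY5Y and 0.47 in SH-EP2, neither of which passed. Downstream of the receptors, FOXO3, a transcription factor that AKT keeps out of the nucleus, fell by 0.51 in SH-SY5Y (adjusted p = 0.00917) and its log2 difference in SH-EP2 was 0.22 (adjusted p = 0.388). The FOXO3 changes differed by 0.72 (adjusted p = 0.0110). Neither interaction passed with median scaling. RHEB, the GTPase that activates mTOR complex 1, fell by 0.30 in SH-EP2 (adjusted p = 0.0144).

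**Figure D4:**
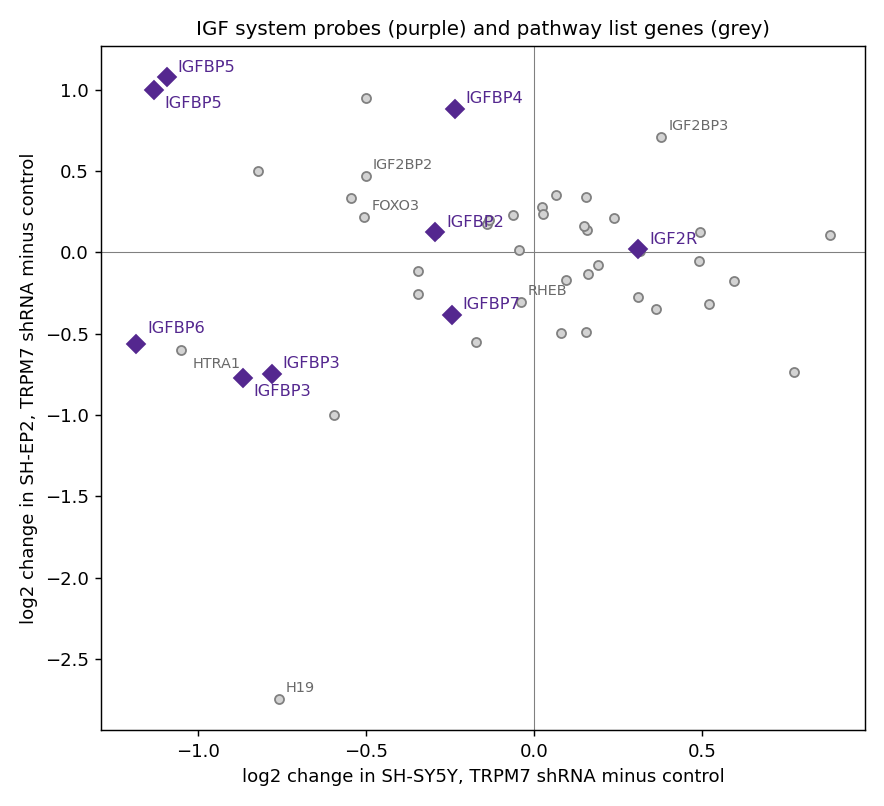
Log2 change with the TRPM7 shRNA in SH-SY5Y (x axis) and SH-EP2 (y axis) for the 9 detected member probes (purple diamonds) and the 39 detected genes of the pathway list (grey circles); the lines have separate controls. Labelled grey circles are pathway genes with a called change or a called difference between the lines. IGFBP5 sits at the upper left on both probes, IGFBP3 and HTRA1 at the lower left, and H19, undetected with the shRNA in SH-EP2, at the bottom.

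Between the controls, 11 of the 48 pathway genes were higher and 11 lower in SH-EP2, which is 56.4% of the 39 detected genes beside 55.5% of all detected probes. The adaptor IRS2 was lower there, with signals of 171 and 169 against 1298 and 1050 in SH-SY5Y (log2 difference -4.28, adjusted p = 2.08e-15). HTRA1 was higher by 3.89 (adjusted p = 3.43e-17) and IGF2BP2 by 3.70 (adjusted p = 1.27e-13).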

How the data were processed

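Gene expression was profiled on 8 Illumina HumanHT-12 v4 arrays, 2 in each of 4 groups set by the cell line and hairpin in the labels. The authors extracted bead signals with GenomeStudio (2011.1, per the submitters' processing notes) and deposited intensity values, not normalized between arrays, with a detection p-value per probe. Such p-values compare a probe with negative control beads, and intensity near background carries little information. The study normalized by RMA and names no test. Here the RMA background model, quantile normalization over the 8 arrays and log2 were applied, and 4 groups were fitted with limma 3.58.1 (statmod 1.5.0, R 4.3.3), eBayes with an intensity trend, and no filter; two-sided p-values were adjusted by Benjamini-Hochberg across the 47322 probes. The number of arrays limits the precision.

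The member genes and the lists were chosen with earlier results of these data known. Named were TRPM7, every member probe, genes of the first 2 pathway classes (further family genes, and proteases and regulators) detected on both arrays of a group, and in each comparison up to 5 pathway genes with the largest called change, no overlap and detection on both brighter arrays. Marker genes that passed were named after their values were seen, and some that enter the counts are not reported singly here. A list gene is given by its brightest probe, and MTOR was found as FRAP1. Same-numbered replicates did not deviate together (correlation -0.00447 in SH-EP2 and -0.111 in SH-SY5Y over 14577 probes), so the numbers were not taken as pairs.

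On simulated arrays with 200 detected probes changed by a known amount in each line, 141 (SH-EP2) and 147 (SH-SY5Y) were recovered. False calls numbered 2 and 5. The simulated amount was larger than the change of any called member probe within a line. Recovery of changes as small as those was not tested. Other settings were the omission of single arrays, probe averages per gene, a replicate block, each line alone, a per-probe test, no intensity trend, a filter (detection on 2 or more arrays), scaling to the median, and background handled by neqc (offset 16), by normexp (offset 50) or not at all. A crossed pairing in SH-SY5Y was added after seeing the data. Promoters and coordinates are from RefSeq GRCh38.p14, and 8 of the 10 member genes had a promoter sequence. Probe and protein sequences were not used here.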

Additional observations from a re-analysis of the deposited data

Results flagged for a closer look

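The change with the TRPM7 shRNA differed between the lines, by the interaction test, for 3 member probes. The change in SH-EP2 minus that in SH-SY5Y was 1.12 for IGFBP4 (limma adjusted p = 0.00206), 2.13 for IGFBP5 probe ILMN_2132982 (adjusted p = 5.51e-08) and 2.17 for IGFBP5 probe ILMN_1750324 (adjusted p = 6.14e-08). For IGFBP5 both arrays of each shRNA group lay beyond both controls, on opposite sides in the 2 lines. These 3 calls were lost without the intensity trend and in the per-probe test.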

How the results depend on the processing

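With the replicate block, member calls stayed at 5 in SH-SY5Y, 5 in SH-EP2 and 3 in the interaction, and no call changed. The crossed pairing gave 5, 6 and 3. Without the intensity trend member calls were 0, 0 and 0 and pathway calls 0, 1 and 0, and over all probes calls dropped from 999 to 64 in SH-SY5Y, from 1429 to 100 in SH-EP2 and from 662 to 23 in the interaction. Without eBayes member calls were 0, 1 and 0, pathway calls 1, 0 and 0, and all-probe calls 50, 103 and 15. Averaging probes per gene left 3 member genes in SH-SY5Y and 3 in SH-EP2, as there are fewer features than probes, and 1 pathway gene each in SH-SY5Y and the interaction. Median scaling left 0 pathway genes in the interaction and turned the IGFBP3 interactions to -0.0967 and -0.0612, neither past the threshold. Leaving out 1 array at a time, member calls ranged from 5 to 6 in SH-SY5Y and SH-EP2, stayed at 3 in the interaction and ranged from 7 to 9 between the controls. Pathway calls ranged from 1 to 3 in SH-SY5Y (1 without SH-SY5Y TRPM7 shRNA replicate 1) and from 0 to 3 in the interaction (0 without SH-EP2 control replicate 1 or SH-EP2 TRPM7 shRNA replicate 1). Values that missed the threshold and changed sign without 1 array were IGF2R in SH-EP2 (-0.0315 to 0.0697), IGFBP2 in SH-EP2 (-0.32 to 0.57) and its interaction (-0.0278 to 0.8637), IGFBP7 in SH-SY5Y (-0.64 to 0.14) and its interaction (-0.52 to 0.25), the IGFBP3 ILMN_1746085 interaction (-0.0187 to 0.0844) and IGFBP4 between the controls (-0.084 to 0.0175). The causes were not tested. Low signals limit IGF2, IGF1R, INSR, H19 and the size of the IGFBP6 and IGFBP7 differences involving SH-SY5Y. The size of the IGFBP2 differences involving SH-EP2 is limited likewise.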
